A study of Rattus norvegicus with 6 samples.

Results

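The mitochondrial ribosomal protein genes are the nuclear genes with a rat symbol of Mrpl (large subunit) or Mrps (small subunit) followed by digits. On the arrays they were found by matching each non-control probe's transcript accession to the RefSeq gene table of rat assembly GRCr8. The match gave 67 genes, 42 of the large and 25 of the small subunit, of the 15645 genes that could be named. They were read by 114 of 61537 probes. The table lists 78 protein-coding genes with such a symbol, and 11 of these were matched by no probe.

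RNA came from the renal cortex of 6 male Sprague-Dawley (Crl:CD(SD)) rats that were 5 weeks old when bought, and each animal was read on its own 1-colour Agilent array. The vehicle group was 3 rats given corn oil. The treated group was 3 rats given the 4,4'-linked form of thiobis(6-tert-butyl-m-cresol), abbreviated TBBC, at a dose of 300 mg/kg/day. Dosing lasted 4 weeks in both groups. The compound is an antioxidant used in rubber and plastics.

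Mitochondria carry their own ribosome, which makes the few respiratory chain and ATP synthase subunits encoded in mitochondrial DNA. All of its proteins are encoded in the nucleus, made in the cytosol and imported, while its RNAs come from mitochondrial DNA. Some of the proteins descend from the bacterial ribosome and others are found only in mitochondria. Renal cortex is rich in mitochondria because its proximal tubules reabsorb solutes by transport that consumes much ATP.

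Values are the log2 of a probe's signal over its array's 75th percentile, so 0 is the level of that percentile. A gene is represented by its brightest probe, and levels are compared between rats and never between probes. Of all probes, 67.1% (TBBC 2) to 70.9% (TBBC 3) lay well above background, and no spot was saturated. All 67 genes lay well above background on all 6 arrays and entered the test. The markers of proximal tubule, thick ascending limb, podocyte and collecting duct lay well above background too. Vehicle 1 to 3 and TBBC 1 shared a slide, and TBBC 2 and TBBC 3 lay on another. The injury genes Havcr1 and Spp1 passed the test as higher in TBBC, by 6.48 ± 0.73 and 5.15 ± 0.26 on the log2 scale (SE, n = 3 rats per group; limma adjusted p = 0.0343 and 0.00434). The other injury gene listed, Lcn2, was higher by 2.92 ± 0.74 and did not pass (limma adjusted p = 0.120).

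The promoters of these genes are shown first, because motifs of known mitochondrial gene regulators are common in them. RefSeq windows of 300 bases, 250 before and 50 after the gene's start, were matched for 55 of the 67 genes. Windows were not matched for Mrpl13, Mrpl15, Mrpl16, Mrpl19, Mrpl21, Mrpl35, Mrpl38, Mrps12, Mrps22, Mrps24, Mrps34 and Mrps35. The sequences below are the 250 bases before the start, 5′ to 3′ on the gene's own strand, in GRCr8 coordinates. They are chr20:2842756-2843005 on the plus strand for Mrps18b, chr1:169575700-169575949 on the minus strand for Mrpl17 and chr1:31795122-31795371 on the minus strand for Mrpl36. Those of the other genes are chr16:76324066-76324315 on the minus strand for Mrps31, chr10:44488003-44488252 on the plus strand for Mrpl55 and chr1:142117031-142117280 on the minus strand for Mrpl46. The first 5 genes were among those whose means differed most between the groups, in both directions. Mrpl46 shares its upstream region with another member. Capitals mark matches, on either strand, to the motif of NRF1 (GCGCA, any base, GCGC), the core motif of ETS factors such as GABPA (CCGGAAG) or the motif of YY1 (AAGATGGC).
Mrps18b: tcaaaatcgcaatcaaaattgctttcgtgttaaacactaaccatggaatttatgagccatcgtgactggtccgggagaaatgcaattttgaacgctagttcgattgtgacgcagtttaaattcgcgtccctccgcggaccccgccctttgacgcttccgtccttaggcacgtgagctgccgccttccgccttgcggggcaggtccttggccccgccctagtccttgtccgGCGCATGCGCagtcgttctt
Mrpl17: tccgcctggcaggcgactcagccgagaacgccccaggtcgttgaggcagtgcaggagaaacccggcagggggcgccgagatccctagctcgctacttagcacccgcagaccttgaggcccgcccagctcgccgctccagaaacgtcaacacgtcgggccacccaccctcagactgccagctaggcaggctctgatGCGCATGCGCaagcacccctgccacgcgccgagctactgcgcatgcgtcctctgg
Mrpl36: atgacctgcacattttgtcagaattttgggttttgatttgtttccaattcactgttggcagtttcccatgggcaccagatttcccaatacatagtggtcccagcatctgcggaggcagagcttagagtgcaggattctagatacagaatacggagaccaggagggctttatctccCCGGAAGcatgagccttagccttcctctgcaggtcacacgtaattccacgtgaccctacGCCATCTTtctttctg
Mrps31: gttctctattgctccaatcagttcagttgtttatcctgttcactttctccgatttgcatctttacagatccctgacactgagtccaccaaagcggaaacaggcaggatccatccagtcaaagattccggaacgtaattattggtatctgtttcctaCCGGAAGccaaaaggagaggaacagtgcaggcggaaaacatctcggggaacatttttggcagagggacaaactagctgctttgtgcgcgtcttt
Mrpl55: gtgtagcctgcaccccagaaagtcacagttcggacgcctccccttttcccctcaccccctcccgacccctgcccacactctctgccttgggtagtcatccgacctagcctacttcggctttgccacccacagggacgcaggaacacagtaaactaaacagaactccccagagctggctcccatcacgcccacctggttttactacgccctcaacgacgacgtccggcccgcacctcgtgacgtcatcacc
Mrpl46: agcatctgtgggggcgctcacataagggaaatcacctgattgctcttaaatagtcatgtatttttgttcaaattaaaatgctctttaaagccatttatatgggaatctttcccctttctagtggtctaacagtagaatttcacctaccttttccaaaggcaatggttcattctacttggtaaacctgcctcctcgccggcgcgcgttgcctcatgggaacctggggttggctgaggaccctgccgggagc

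Among the 5 genes chosen for their values, motifs stood before genes of either direction. The NRF1 motif lay 20 to 11 bases before the start of Mrps18b and 55 to 46 bases before that of Mrpl17, both with higher means in TBBC. An ETS motif lay 94 to 88 bases before the start of Mrps31 and 75 to 69 bases before that of Mrpl36, both with lower means. Mrpl36 also had a YY1 motif, 16 to 9 bases before its start. Over its whole window, Mrps18b also had ETS and YY1 matches, which reached past the start. Among the other members, the NRF1 motif also stood before Mrpl44, with a lower mean (-0.22). An ETS motif also stood before Mrps27, with a higher mean (0.39). The 250 bases before Mrpl55 and Mrpl46 held none of these 3 motifs.

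Over the whole 300-base windows, the NRF1 motif was found in 9 of the 55 genes (16.4%), against 8.68% of the 10036 tested genes with a window and 4.71% of all 27457 windows. The ETS motif was found in 19 (34.5%), against 15.8% and 9.22%. The YY1 motif was found in 13 (23.6%), against 4.88% and 3.44%, and in 10 of the 13 it reached past the start. At least 1 of the 3 motifs was found in 31 windows (56.4%), against 25.6% of tested genes and 15.5% of all windows. Other motifs searched were the E-box (CACGTG), the TATA box (TATAAA) and the CARE bound by ATF4 (TGATG, any base, AA). They were found in 10.9%, 12.7% and 1.82% of the members' windows, against 8.86%, 8.70% and 2.39% of tested genes. The members' windows had a median GC content of 56.3%, below the 59.7% of tested genes. The median log2 difference between TBBC and vehicle was -0.0075 for the 31 genes with an NRF1, ETS or YY1 motif and -0.028 for the others. By motif, it was 0.045 with NRF1 and -0.017 without, and -0.019 with ETS and 0.014 without. For YY1 it was 0.022 with the motif and -0.020 without. Whether motif and direction go together was not tested. A match describes the letters only, and binding was not measured.

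As a group, the mitochondrial ribosomal protein genes stood at nearly the same level in treated and untreated cortex. None of the 67 passed limma's test at an adjusted p of 0.05, where 0.531% of all 32956 transcripts tested did (175, of which 84 were higher and 91 lower in TBBC). The smallest adjusted p among them was 0.0945, for Mrpl16. At an unadjusted p under 0.05, 4 were higher and 3 lower, against 20% of all transcripts (9.55% higher and 10.4% lower). Means in TBBC were lower for 37 genes (55.2%) and higher for 30, against 53.5% lower and 46.5% higher over all transcripts. The median log2 difference was -0.019, beside -0.024 for all transcripts. Within the slide that held both groups, where TBBC 1 alone stands for treatment, the members' median was 0.080. It was 0.049 without TBBC 3 and -0.079 without TBBC 1. In bulk tissue, fewer cells of a type and less RNA per cell cannot be told apart.

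The members also spread less than transcripts at large. The middle of their distribution, from the 25th to the 75th percentile, ran from -0.12 to 0.06, against -0.22 to 0.18 for all transcripts. The log2 difference was under 0.25 in size for 56 of the 67 (83.6%), against 58.1% of all transcripts. For 50 members the 95% interval lay within 0.5 of 0 on the log2 scale, and for 66 it lay within 1, against 79.2% of all transcripts. The exception at 1 was Mrps18b. A missed threshold does not show equality, and these intervals give the differences that the data still allow. All members lay well above background on all 6 arrays, which the filter did not require of every transcript. Their median SD in vehicle was 0.064, against 0.125 for all transcripts. The part of signal level in the narrower spread was not tested.

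**Figure D1:**
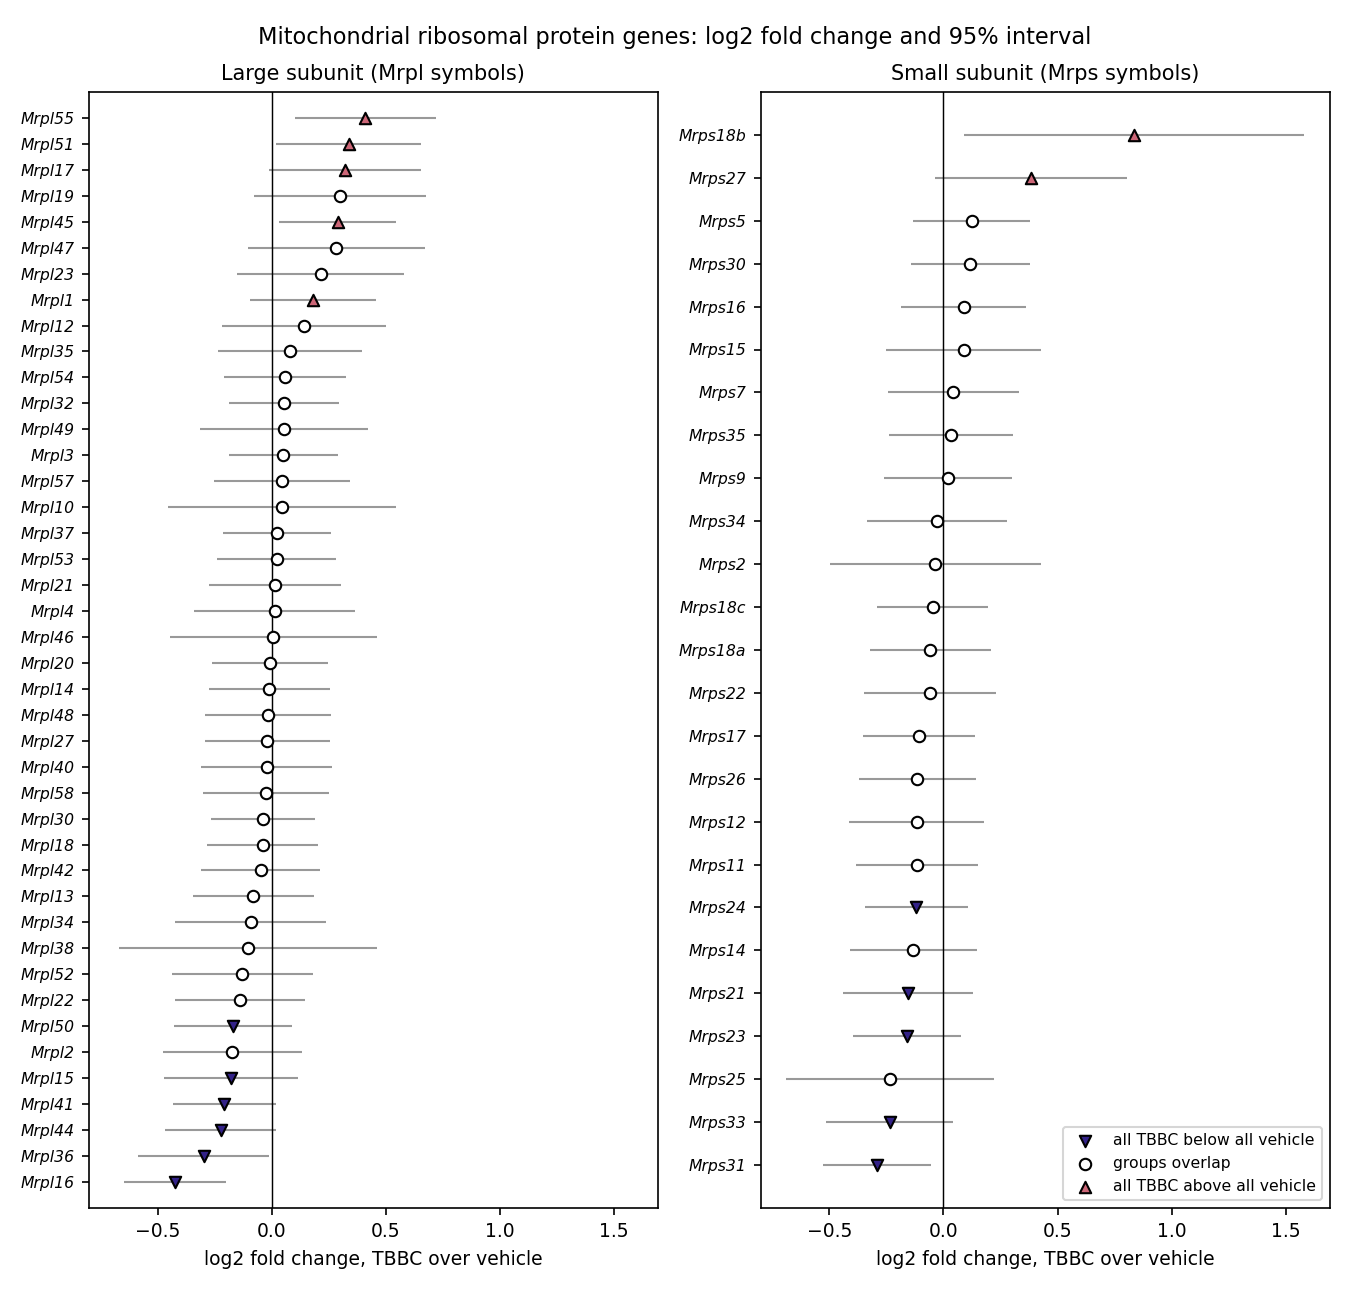
Log2 fold change of TBBC over vehicle (horizontal axis) for the 42 large subunit genes (left) and 25 small subunit genes (right), with limma's 95% interval as a line (n = 3 rats per group) and a triangle where all TBBC rats lay beyond all vehicle rats. Points lie on both sides of 0, from -0.43 for Mrpl16 to 0.84 for Mrps18b, and most intervals cross 0.

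Groups did not overlap for 18 genes. In 11 of these all TBBC rats were below all vehicle rats, which is 16.4% of the members against 15.2% of all transcripts. In 7 all TBBC rats were above, which is 10.4% against 13.1%. Both shares lay near the background.

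Large subunit proteins of the core lie around the peptidyl transferase centre. Mrpl16, whose bacterial relative helps to place transfer RNA, was at 2.66, 2.62 and 2.63 in vehicle 1 to 3 and at 2.25, 2.18 and 2.21 in TBBC 1 to 3. All 3 TBBC rats were below all vehicle rats, and rats of a group differed little. The difference was -0.43 ± 0.09 (SE, n = 3 rats per group; 95% interval -0.65 to -0.20; limma adjusted p = 0.0945), or 1.34-fold higher in vehicle. It was the lowest of all members and still had 11.5% of all transcripts below it. The other core genes measured, Mrpl2, Mrpl3 and Mrpl4, had differences of -0.17, 0.051 and 0.013.

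Mrpl36, a small zinc-binding protein with a bacterial relative, was at 3.98, 3.99 and 4.13 in vehicle and at 3.87, 3.58 and 3.75 in TBBC. The groups did not overlap, with the lowest value in TBBC 2. The difference was -0.30 ± 0.12 (95% interval -0.58 to -0.011; limma adjusted p = 0.236), and the gene's other probe gave -0.39. Mrpl44, a mitochondria-specific protein related to ribonuclease III, was at 2.73, 2.81 and 2.81 in vehicle and at 2.64, 2.57 and 2.47 in TBBC. Its groups did not overlap either, and its difference was -0.22 ± 0.10 (limma adjusted p = 0.284). Mrpl41, also specific to mitochondria, had a difference of -0.21 ± 0.09 (limma adjusted p = 0.283), and its 4 probes gave -0.21 to -0.15.

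At the other end of the large subunit genes stood Mrpl55, a relative of a bacterial protein in the central protuberance, the crown of the large subunit that faces the small one. It was at 3.33, 3.18 and 3.28 in vehicle and at 3.82, 3.73 and 3.48 in TBBC. All TBBC rats were above all vehicle rats, TBBC 3 by the least. The difference was 0.41 ± 0.13 (95% interval 0.10 to 0.72; limma adjusted p = 0.161).

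Mrpl51, a protein without a bacterial relative, was at 0.99, 0.81 and 1.03 in vehicle and at 1.41, 1.35 and 1.08 in TBBC. The groups did not overlap, and TBBC 3 lay close to the highest vehicle rat. The difference was 0.34 ± 0.13 (limma adjusted p = 0.229). Mrpl19, a relative of a bacterial protein at the face between the subunits, was at 1.44, 1.45 and 1.63 in vehicle and at 1.83, 2.05 and 1.54 in TBBC. Its groups overlapped through TBBC 3, and its difference was 0.30 ± 0.16 (limma adjusted p = 0.343).

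The proteins around the exit of the nascent peptide tunnel, which faces the inner membrane, had higher means in 4 of 5 genes. Mrpl17, one of them, was at 4.50, 4.45 and 4.49 in vehicle and at 4.97, 4.89 and 4.55 in TBBC. The groups did not overlap, TBBC 3 being nearest to vehicle. The difference was 0.32 ± 0.14 (limma adjusted p = 0.262), and its 4 probes gave 0.20 to 0.33. Mrpl45, which tethers the ribosome to the membrane, had a difference of 0.29 ± 0.11 (limma adjusted p = 0.205), with all TBBC rats above all vehicle rats. Mrpl47 and Mrpl23 had differences of 0.28 ± 0.16 and 0.21 ± 0.15 with overlapping groups, and Mrpl22 was at -0.14 ± 0.12. The median of the 5 was 0.28. Measured from the vehicle mean on each array, their median was 0.35, 0.38 and 0.069 in TBBC 1 to 3. The core genes above, this group and the following structural groups were drawn up after the values were known. Their values and medians only describe them and support nothing.

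The 8 genes of the central protuberance had 2 higher and 6 lower means, with a median of -0.020, Mrpl55 being the highest of them. Mrpl58, a peptidyl-tRNA hydrolase that became a ribosomal protein, belongs to them and had a difference of -0.027 ± 0.11 (95% interval -0.30 to 0.25). Of the stalk genes, Mrpl10 and Mrpl12 encode proteins of the stalk that recruits translation factors. Mrpl12, the stalk protein that is also known to bind the mitochondrial RNA polymerase, was at 5.62, 5.57 and 5.49 in vehicle and at 5.82, 5.87 and 5.41 in TBBC. TBBC 1 and TBBC 2 were above all vehicle rats and TBBC 3 below them. The difference was 0.14 ± 0.15 (limma adjusted p = 0.649). Mrpl1 and Mrpl10, the other stalk genes, had differences of 0.18 ± 0.11 and 0.044 ± 0.21.

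In the small subunit, the 7 members of the head had 3 higher and 4 lower means, with a median of -0.12. Head proteins under other names, such as Dap3, are not counted here and are given below. Mrps31, a mitochondria-specific protein of the head, was at 3.61, 3.61 and 3.65 in vehicle and at 3.28, 3.42 and 3.30 in TBBC. All TBBC rats were below all vehicle rats. The difference was -0.29 ± 0.10 (95% interval -0.53 to -0.053; limma adjusted p = 0.184). Mrps33, also of the head, was at 4.09, 4.13 and 4.16 in vehicle and at 3.72, 3.97 and 3.99 in TBBC. The groups did not overlap, and TBBC 1 was lowest. The difference was -0.24 ± 0.12 (limma adjusted p = 0.316). Of the mitochondria-specific genes Mrps23 and Mrps25, the first was at -0.16 ± 0.10 without overlap and the second at -0.23 ± 0.19 with overlapping groups (limma adjusted p = 0.417 and 0.535).

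The bacterial protein S18 has 3 relatives in the mitochondrial ribosome of mammals. Mrps18c occupies the place of the bacterial protein, Mrps18b sits elsewhere in the small subunit and Mrps18a in the large one. Mrps18b had the widest difference of all members, with values of 0.42, 1.18 and 1.20 in vehicle and 2.09, 1.96 and 1.25 in TBBC. The groups did not overlap, but TBBC 3 lay just above vehicle 2 and 3, and vehicle 1 lay far below its group. The difference was 0.84 ± 0.31 (95% interval 0.092 to 1.58; limma adjusted p = 0.208), or 1.78-fold, and it was 0.58 without vehicle 1. Mrps18a was at -0.057 ± 0.11 and Mrps18c at -0.048 ± 0.10 (limma adjusted p = 0.814 and 0.834).

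Mrps27, a pentatricopeptide repeat protein of the small subunit, was at -0.93, -1.12 and -0.90 in vehicle and at -0.25, -0.72 and -0.82 in TBBC. All TBBC rats were above all vehicle rats, TBBC 1 by the most. The difference was 0.39 ± 0.17 (limma adjusted p = 0.285), and its 3 probes gave 0.29 to 0.74. Mrps5, a relative of a bacterial protein at the channel where messenger RNA enters, was at 0.12 ± 0.11. Mrps30, which carries a small subunit symbol but sits in the large one, was at 0.12 ± 0.11 as well (limma adjusted p = 0.565 and 0.588). No accession was matched to the symbol Mrps36, whose gene the table lists as Kgd4.

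**Figure D2:**
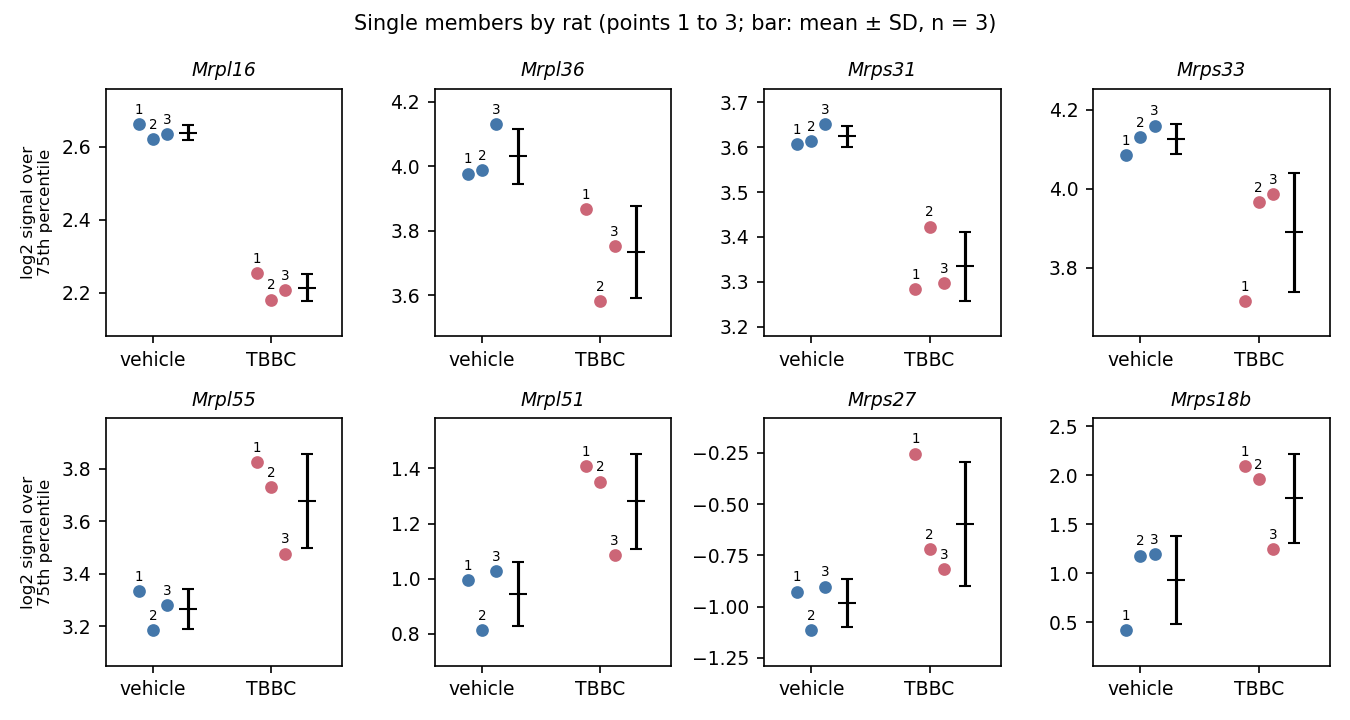
Log2 signal over the array's 75th percentile (vertical axis, own scale in each panel) in the 3 vehicle and 3 TBBC rats for 8 members, with points numbered by rat and the mean ± SD beside them. TBBC lies below vehicle in the panels of Mrpl16, Mrpl36, Mrps31 and Mrps33 and above it in those of Mrpl55, Mrpl51, Mrps27 and Mrps18b, where TBBC 3 is the treated rat nearest to vehicle.

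Most genes with several probes gave a single direction. Of 34 such members, 27 had the same sign on all tested probes and 7 had opposite signs. The widest disagreements were in Mrpl18, whose probes gave -0.040 and 0.41, and Mrpl40, whose 4 probes ran from -0.34 to 0.013.

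Large subunit genes had the higher median on each treated array. The 42 large subunit genes had 21 higher and 21 lower means and a median of -0.00033, with 5 genes wholly above and 6 wholly below vehicle. The 25 small subunit genes had 9 higher and 16 lower means and a median of -0.057, with 2 wholly above and 5 wholly below. Lower means made up 50% of the large and 64% of the small subunit genes, against 53.5% of all transcripts. The shares wholly above were 11.9% and 8%, against 13.1%, and those wholly below 14.3% and 20%, against 15.2%. These counts are small, and the shares lay near the background. The large subunit median minus the small one, taken per array from the vehicle mean, was 0.12, 0.047 and 0.023 in TBBC 1 to 3 and -0.0039 to -0.00058 in the vehicle rats. The vehicle rats are measured from their own mean, which draws their values to it by construction. These values therefore do not measure the spread between rats. All 3 TBBC arrays lay on the same side, but they share that vehicle baseline, and no test of this difference was made. Over both groups the large subunit median minus the small one was 0.057, and 0.041 to 0.071 without 1 array. With Mrps18a and Mrps30 counted in the large subunit, where their proteins sit, the medians were -0.00033 and -0.060.

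Some members have bacterial relatives and others are specific to mitochondria. In the large subunit, the 25 with bacterial relatives had a median of 0.013 and the 17 specific to mitochondria one of -0.016. Measured from the vehicle mean in TBBC 1 to 3, the medians were 0.10, -0.0063 and -0.088 for the first class and 0.12, 0.021 and -0.15 for the second. The order of the classes thus differed between rats. In the small subunit, without Mrps18a and Mrps30, the 13 with bacterial relatives had a median of -0.048 and the 10 specific to mitochondria one of -0.088. Mrps18b was counted in the second class for its site. Counted in the first, as a relative of S18, it gave medians of -0.041 over 14 genes and -0.12 over 9, an alternative chosen after seeing the data. By rat, with Mrps18b in the second class, they were 0.025, -0.065 and -0.13 for the first and -0.024, 0.0042 and -0.17 for the second.

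The members' median level differed between the treated rats. Measured from the vehicle mean, it was 0.041, -0.023 and -0.0075 in vehicle 1 to 3, and 0.080, 0.0081 and -0.12 in TBBC 1 to 3. TBBC 3 was the lowest TBBC rat for 49 of 67 genes (73.1%), against 34.4% of all transcripts. It was lowest for 30 of 42 large and 19 of 25 small subunit genes. TBBC 1 was the highest for 40 (59.7%), against 36.1%. TBBC 1 lay on the vehicle slide and TBBC 2 and TBBC 3 on another. For the distance of TBBC 1 from these 2, rat and slide cannot be told apart. Of the 67 genes, 23 lay below the vehicle mean in TBBC 1, 33 in TBBC 2 and 52 in TBBC 3. The spread between arrays was wider in TBBC, with a median SD of 0.064 in vehicle and 0.13 in TBBC. The vehicle arrays shared a slide and the TBBC arrays did not. In this wider SD too, rat and slide cannot be told apart. The SD was larger in TBBC for 56 members (83.6%), against 74.3% of all transcripts.

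**Figure D3:**
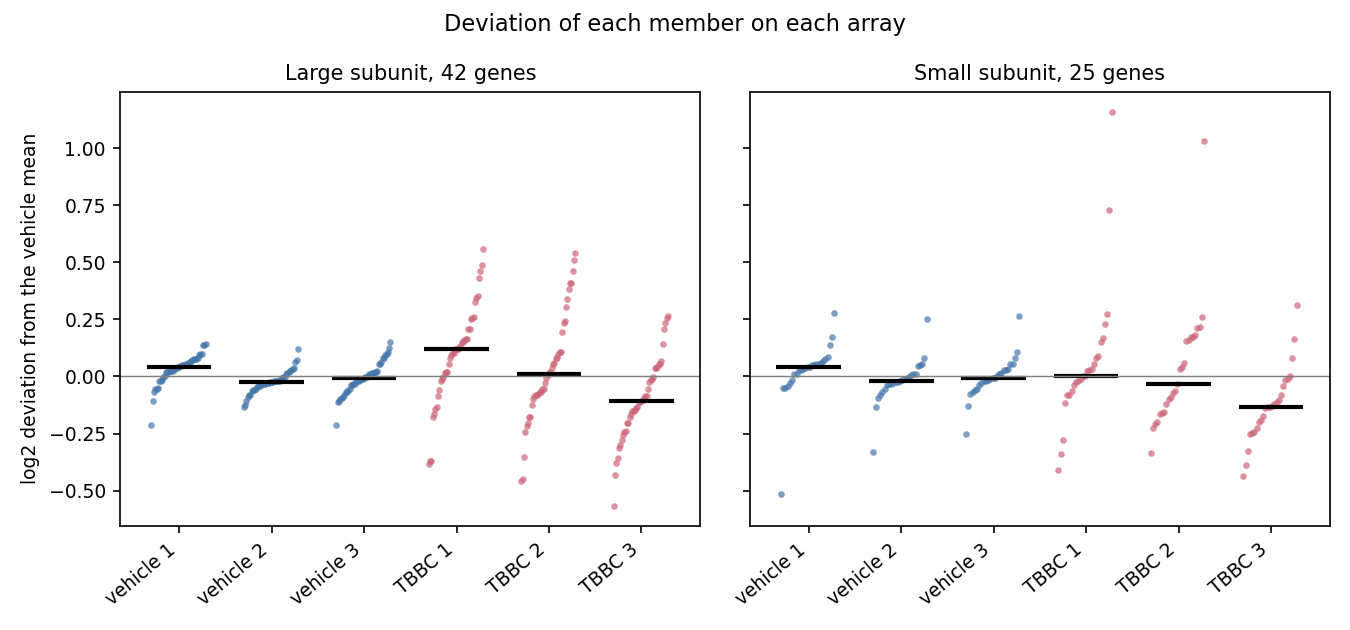
Log2 deviation of each member from its vehicle mean (vertical axis) on each of the 6 arrays, for the 42 large subunit genes (left) and 25 small subunit genes (right), with the median as a bar. The bars of TBBC 3 lie lowest, at -0.11 for the large and -0.13 for the small subunit, and that of TBBC 1 is highest for the large subunit at 0.12.

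Markers of other cell types differed between the treated rats too, leukocyte markers being highest in TBBC 3. All 6 (Ptprc, Cd68, Cd3e, Cd74, Lyz2 and Itgam) were highest in TBBC 3 among the TBBC rats, and 5 of them lay there above all vehicle rats. The exception was Cd74, for which all TBBC rats lay below all vehicle rats, with a difference of -0.85 ± 0.28 (limma adjusted p = 0.171). The summed signal of the 6 was 125 to 143 times the 75th percentile in vehicle, 87.8 and 92.3 in TBBC 1 and 2 and 187 in TBBC 3. This sum follows mainly the 2 brightest probes, those of Lyz2 and Cd74, with vehicle means of 6.18 and 5.86 on the log2 scale. Itgam was not well above background in 1 vehicle rat, and the other 5 markers were on all 6 arrays. The summed signal of the 6 proximal tubule markers was 1052 to 1124 in vehicle and 826, 978 and 966 in TBBC 1 to 3. The 3 podocyte markers summed to 26.7 to 29.7 in vehicle and to 27.3, 23.8 and 18.8 in TBBC 1 to 3, the order of the members' medians. Thick ascending limb markers summed to 339 to 395 in vehicle and to 312, 122 and 190 in TBBC 1 to 3. Collecting duct markers summed to 110 to 144 in vehicle and to 83.3 and 103 in TBBC 1 and 2, with TBBC 3 above both and below all vehicle rats. The part of any of these lists in the members' values was not tested.

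Mitochondrial ribosomal proteins under other names had no call in limma's test either, with 0 of 5 past the threshold and 0 at an unadjusted p under 0.05. Dap3, a GTP-binding protein of the small subunit head, was at 0.17 ± 0.11 and Chchd1 at 0.24 ± 0.12, both with all TBBC rats above all vehicle rats. Ptcd3 was at -0.090 ± 0.15, Gadd45gip1 at -0.089 ± 0.18 and Aurkaip1 at -0.045 ± 0.12.

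Genes that build and serve the mitochondrial ribosome had no call in limma's test in any of the following lists, which were also chosen with results of these data known. Of 24 assembly genes, 13 had higher and 11 lower means (45.8% lower, against 53.5% of all transcripts), with a median of 0.054. Those with the smallest p were Mrm2, which methylates ribosomal RNA, at 0.47 ± 0.16, and Fastkd2, an RNA-binding protein of ribosome assembly, at 0.43 ± 0.14 (limma adjusted p = 0.189 and 0.184). Of 15 translation factors, 10 had lower means (66.7%, against 53.5%), with a median of -0.077. The elongation factors Tufm and Gfm1 stood at -0.27 ± 0.10 and -0.27 ± 0.12 (limma adjusted p = 0.202 and 0.259).

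Of 15 genes of mitochondrial DNA expression, 11 had lower means (73.3%, against 53.5% of all transcripts) and the median was -0.038. Polg, the catalytic subunit of the mitochondrial DNA polymerase, was at -0.31 ± 0.14, and Tfb2m, which opens promoters of mitochondrial DNA, at -0.26 ± 0.11 (limma adjusted p = 0.280 and 0.273). Of 16 mitochondrial transfer RNA synthetases, 9 had higher and 7 lower means (43.8% lower, against 53.5%), and the median was 0.015. Ears2, which charges glutamate, was at 0.67 ± 0.25 and Wars2, which charges tryptophan, at -0.32 ± 0.15 (limma adjusted p = 0.214 and 0.295).

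Of 9 regulators of mitochondrial gene expression, 4 had higher and 5 lower means (55.6% lower, against 53.5% of all transcripts), with a median of -0.034. The transcription factors whose motifs were counted above were at 0.14 ± 0.11 for Nrf1, -0.10 ± 0.10 for Gabpa and -0.23 ± 0.12 for Yy1. Myc, a growth regulator, was at 2.05 ± 0.64 and Pprc1, a coactivator of the PGC-1 family, at 0.78 ± 0.34 (limma adjusted p = 0.161 and 0.264). Myc was at 0.57 in TBBC 1, 2.88 in TBBC 2 and 0.55 in TBBC 3.

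The members lay between the genes of the cytosolic ribosome and those of oxidative phosphorylation. Of 76 cytosolic ribosomal protein genes tested, 75 had higher means in TBBC, against 46.5% of all transcripts, with a median of 0.36. Wholly above vehicle lay 69 (90.8%), against 13.1% of all transcripts. One passed limma's test, Rpl19, a large subunit protein, at 0.95 ± 0.12 (limma adjusted p = 0.0388), and its call was lost under 11 of 21 alternatives. Averaged over its probes its difference was 0.42. Rps19, of the small subunit, was at 0.66 ± 0.10 (limma adjusted p = 0.0571). Of 48 nuclear genes of oxidative phosphorylation, 47 had lower means (97.9%), against 53.5% of all transcripts, with a median of -0.20 and no call. Wholly below vehicle lay 30 (62.5%), against 15.2% of all transcripts. Atp5f1b, the catalytic beta subunit of ATP synthase, was at -0.39 ± 0.09, and Ndufs8, a subunit of respiratory complex I, at -0.35 ± 0.10 (limma adjusted p = 0.114 and 0.136). Under the 21 alternatives the cytosolic median ran from 0.25 to 0.38 and the oxidative phosphorylation median from -0.28 to -0.15, while the members' median ran from -0.079 to 0.080.

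By rat, the cytosolic ribosomal genes had medians of 0.37, 0.33 and 0.35 from the vehicle mean in TBBC 1 to 3. Those of oxidative phosphorylation were at -0.22, -0.14 and -0.22. TBBC 3 was the lowest TBBC rat for 42.1% of the cytosolic ribosomal and 52.1% of the oxidative phosphorylation genes, against the 73.1% of the members. No test of the difference between these lists was made.

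**Figure D4:**
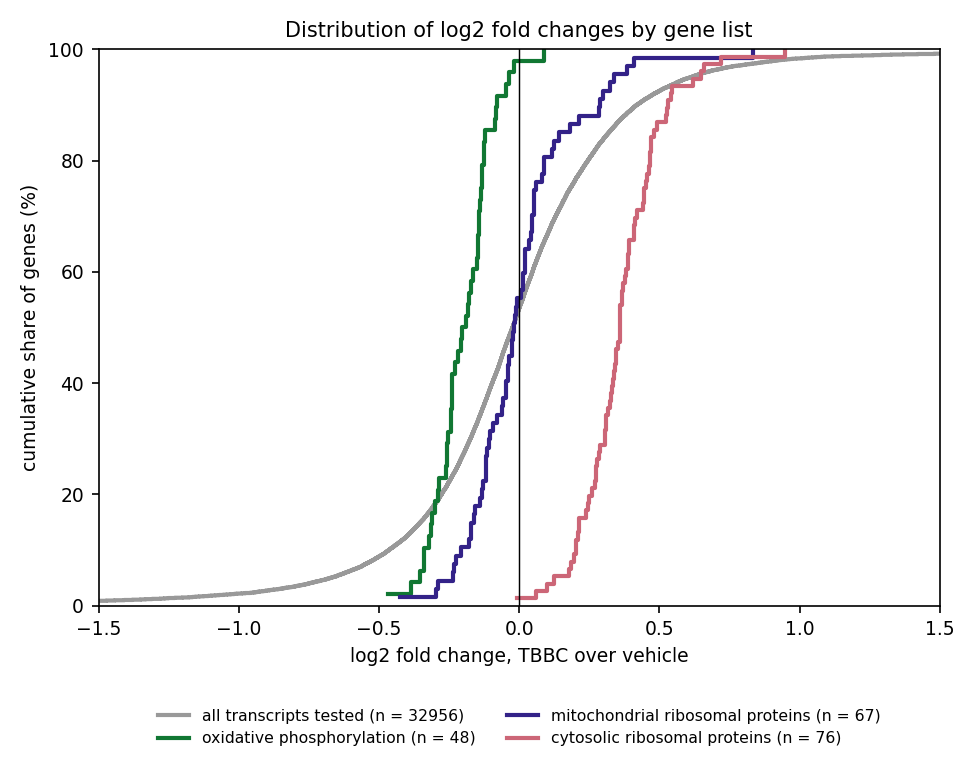
Cumulative share of genes (vertical axis, percent) by log2 fold change of TBBC over vehicle (horizontal axis) for 4 sets: the 67 mitochondrial ribosomal protein genes, 76 cytosolic ribosomal protein genes, 48 oxidative phosphorylation genes and all 32956 transcripts tested. The members' curve crosses the middle at -0.019, beside -0.024 for all transcripts, -0.20 for oxidative phosphorylation and 0.36 for the cytosolic ribosome.

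Several members share their upstream region with a neighbouring gene. Of the 55 with a window, 18 (32.7%) had the start of another gene, on the other strand and pointing away, within 1000 bases, against 1425 of 9981 other tested genes (14.3%). Mrpl46 and Mrps11 are such a pair, with starts 234 bases apart, and had differences of 0.0069 ± 0.19 and -0.12 ± 0.11. Mrpl47 and Ndufb5, a subunit of respiratory complex I, start 244 bases apart and were at 0.28 ± 0.16 and -0.12 ± 0.10. Mrps18b and Ppp1r10, a regulatory subunit of protein phosphatase 1, start 588 bases apart and were at 0.84 ± 0.31 and -0.17 ± 0.12. Both genes were tested in 13 of the 18 cases, and the sign was shared in 5, counting Mrpl46 with Mrps11 from both sides.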

How the data were processed

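Renal cortex RNA of 6 rats, 3 vehicle and 3 TBBC, was measured on 1-colour Agilent arrays. Sample titles gave the groups and replicate numbers. The authors' scanner files, written by Feature Extraction 10.7.1.1 (named as 10.7 in the submitters' processing notes), give a background-subtracted intensity per spot that, per the file headers, is each array's own. In the authors' deposited value table a probe has a linear ratio. Set against the scanner files, it was this intensity over about the array's 75th percentile, without log or centring, and it served as an alternative.

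From these, 1439 control spots and 0 to 9 outlier spots per array were left out. Signals were divided by the 75th percentile over non-control probes, and log2 was taken. Accessions without versions were matched to RefSeq (GRCr8), which named 28206 probes; 33331 stayed unnamed. The 41992 probes tested lay well above background in 1 or both groups, on all of the group's arrays without a flag, and the brightest tested probe stood for its gene (32956 transcripts, 12298 of them named genes). limma 3.58.1 in R 4.3.3 (lmFit, eBayes, two-sided) compared the groups on all 6 arrays, with Benjamini-Hochberg adjustment over all transcripts and a threshold of 0.05. The fit was tested on simulated data. The file headers name genome build rn4, so coordinates come from RefSeq GRCr8 alone.

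The genes named are all members past the threshold, the 4 highest and 4 lowest of each subunit, Mrps18a, Mrps18b, Mrps18c, Mrps30, Mrps36, Mrpl12, Mrpl58, the mitochondrial ribosomal proteins under other names, and of each other list the 2 genes with the smallest p and any past the threshold. Others were named after their values were seen. The members and lists were chosen with earlier results of these data known. Each result was recomputed under 21 alternatives of scaling, background, filter, probe rule, variance model, slide, replicate block and left-out arrays. Normexp used the median spot signal, since the mean signal was not used here.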

Additional observations from a re-analysis of the deposited data

How the results depend on the processing

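The count of members past limma's threshold was 0 under 19 of 21 alternatives and 1, Mrpl16, with normexp background correction and with a trended, robust variance (adjusted p = 0.0477 and 0.0434; 0.0434 to 0.314 over all alternatives, log2 difference -0.45 to -0.39). Calls over all transcripts, 175 as reported, were 761 with normexp, 52 with no filter on dim probes, 1087 with a trended, robust variance, 48 with a slide term, 307 on the slide that holds both groups and 6 to 274 without 1 array (10, 6 and 14 without vehicle 1 to 3, and 254, 58 and 274 without TBBC 1 to 3). The replicate numbers did not pair the rats: deviations of same-numbered rats correlated at -0.09, 0.03 and -0.07. With the replicate block limma made 0 calls over all transcripts and 5366 had an unadjusted p under 0.05, of which 2 were members.

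In the fit with a slide term and on the slide that holds both groups alone, both of which rest on TBBC 1 for the treatment, the median was 0.080 for the members, 0.12 for the large subunit, 0.0036 for the small and 0.12 for their difference. Without 1 array these ran from -0.079 (without TBBC 1) to 0.049 (without TBBC 3), from -0.060 to 0.051, from -0.12 to -0.020 and from 0.041 to 0.071. The members with a lower mean in TBBC were 23 in both slide fits and 30 to 44 without 1 array. The cause was not tested. Called cytosolic ribosomal genes, 1 as reported, were 10 with normexp, 34 with a trended, robust variance and 0 under 11 alternatives; 1 gene of oxidative phosphorylation was called with each of normexp and a trended, robust variance.

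Of the 67 members, 17 were below 0 and 15 above 0 under all settings, and 35 had both signs, none of them called. Of the genes named by the rule in the methods, those that turned sign in both slide fits were Mrps18a (0.080), Mrps18c (0.032), Mrpl58 (0.081), Gadd45gip1 (0.25) and Aurkaip1 (0.10). Mrpl58 was at 0.0072 with normexp. Without 1 array, Mrpl58 ran from -0.081 to 0.049 (above 0 without vehicle 1 or TBBC 3), Ptcd3 from -0.21 to 0.0041 (above 0 without TBBC 1), Gadd45gip1 from -0.26 to 0.056 and Aurkaip1 from -0.12 to 0.046 (above 0 without TBBC 3). The other genes named by that rule kept their direction. Of members named outside it, Mrpl2 ran from -0.27 to 0.015, Mrpl4 from -0.092 to 0.15, Mrpl10 from -0.37 to 0.25, Mrpl18 from -0.12 to 0.18, Mrpl40 from -0.14 to 0.12 and Mrpl46 from -0.11 to 0.20 over all alternatives. With 3 arrays per group, small differences lie within the intervals given, and the number of arrays limits the precision.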
